A study of Mus musculus with 4 samples.

Results

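TRBV31, the V segment whose product is known as Vβ14, was followed through the TCRβ repertoire of splenic CD4 T cells from 2 WT and 2 Tet2/3 DKO mice. In the clone tables every different nucleotide sequence of the variable region counts as a clone. A clone was assigned to TRBV31 when that segment was the first V segment listed for it, with the allele removed. The rule found 50402 of 382531 TCRβ clones. Within a library, clones that matched in V, in J and in all CDR3 nucleotides were then merged into 1 rearrangement, which gave 41000 TRBV31 rearrangements of 325715 in all. The rule used only the V call, so that J and D partners, reading frame, CDR3 length and clone size were measured independently of it.

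All 4 mice were approximately 25 days old. The controls were C57BL/6 mice labelled WT. The Tet2/3 DKO mice carried a germline deletion of Tet2 (Tet2-/-) and a floxed Tet3 (Tet3 flx/flx) removed by CD4Cre, a transgene that becomes active in double positive thymocytes, after the TCRβ locus has been rearranged. Live CD4+ CD25- TCRβ+ cells that did not bind the αGalCer-CD1d tetramer were sorted from the spleen. The gate thus removed iNKT cells and cells with CD25, and it did not separate naïve cells from activated ones. The files hold receptor sequences and no other transcripts, so the sorted cell type could not be checked against its markers. Each genotype has 2 biological replicates, and p-values measure the spread between these 4 libraries only. The libraries are called WT 1, WT 2, DKO 1 and DKO 2 after their genotype and replicate number, and wherever 4 values follow each other they are in this order. They held 365421, 454098, 409444 and 569678 TCRβ reads. The kit adds no molecular identifiers, so that reads are PCR copies of transcripts and confidence intervals cover counting error only. More cells with a chain and more transcripts per cell cannot be told apart in such data.

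A TCRβ chain is assembled in developing thymocytes in a fixed order. A D segment is joined to a J segment, and a V segment is then joined to the DJ unit, while nucleotides are removed from the segment ends and others are added at both junctions. TRBV31 is unusual because it lies downstream of the constant genes and in the opposite orientation, so that it is joined by inverting the DNA between it and the DJ unit, whereas the upstream V segments are joined by deleting the DNA in between.

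In the mouse assembly GRCm38 (RefSeq annotation), Trbv31 (gene 269846) spans chr6:41557693-41558371. It starts 24.5 kb after the start of Trbd1 and 9.51 kb after the end of Trbc2, the second constant gene. Of the V segments in the annotation, 34 lie upstream of Trbd1 and 1, Trbv31, lies downstream of Trbc2. The closest upstream V segment, Trbv30, starts at -252 kb on the scale of the locus map, which counts from the start of Trbd1. Both DJC clusters therefore lie between TRBV31 and all other V segments.

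**Figure D1:**
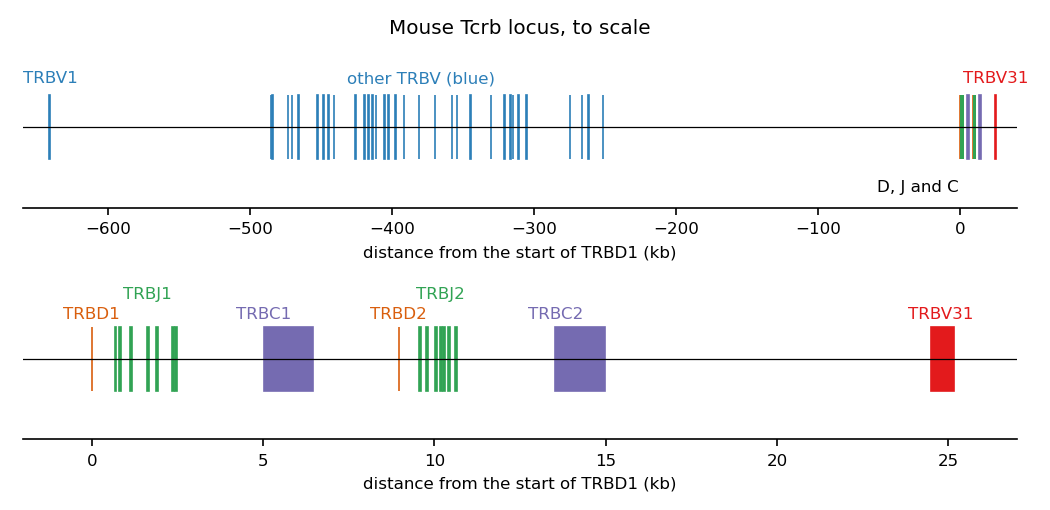
The upper map shows the mouse Tcrb locus to scale, with the distance from the start of TRBD1 in kb, and the lower map enlarges its downstream end. V segments are blue, D segments orange, J segments green, constant genes purple and TRBV31 red, which starts 24.5 kb after the start of TRBD1, on the far side of TRBC2 from every other V segment.

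The V part of TRBV31 clones was nearly invariant. A V part of 270 nucleotides, from framework region 1 to framework region 3, was held by 99.1%, 99.1%, 99.1% and 99.2% of TRBV31 reads. The same sequence accounted for 94.4% of TRBV31 reads over the 4 libraries, with 94.1% in the library with the lowest share and 94.7% in the one with the highest. It is shown because nearly all TRBV31 chains start with it, read 5′ to 3′ on the coding strand as the clone tables give it, with CDR1 and CDR2, the loops encoded by the V segment itself, in capitals.
TRBV31 framework 1 to framework 3: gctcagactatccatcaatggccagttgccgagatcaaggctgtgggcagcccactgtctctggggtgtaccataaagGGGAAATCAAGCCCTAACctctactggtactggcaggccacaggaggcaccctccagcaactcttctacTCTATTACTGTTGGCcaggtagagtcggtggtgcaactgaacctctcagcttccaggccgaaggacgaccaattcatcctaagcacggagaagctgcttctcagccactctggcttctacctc
TRBV31 start of the CDR3: tgtgcctggagtc
The second sequence is the 13 nucleotides of the CDR3 assigned to TRBV31 where nothing is counted as trimmed. The exact end of the segment could not be settled, as described below. No read with TRBV31 as its first listed V had a further V segment listed, while 0.0160% to 0.0235% of all TCRβ reads were. The CDR3 start also set the segment apart, since 97.3% to 97.6% of in-frame TRBV31 rearrangements had tryptophan as the third residue of the CDR3 and at most 0.0155% of those of all other TRBV segments did.

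TRBV31 was the most abundant V segment by reads and the second most abundant by rearrangements, after TRBV5, in the mean over the libraries and among 22 TRBV segments with at least 200 rearrangements in every library. It held 53830, 67027, 60380 and 79855 reads, or 14.7%, 14.8%, 14.7% and 14.02% of TCRβ reads. It held 9668, 11378, 10535 and 9419 rearrangements in the same order, or 13.8%, 13.3%, 12.7% and 10.8% of all rearrangements. TRBV5 held 13.5%, 13.3%, 13.6% and 11.9% of rearrangements, so that TRBV31 was above it in both WT libraries, by less than 1 percentage point, and below it in both Tet2/3 DKO libraries. The share of reads differed little between libraries, and the share of rearrangements was lower in both Tet2/3 DKO libraries than in both WT libraries.

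The read count of TRBV31 was compared between genotypes with the quasi-likelihood test of edgeR over 24 TRBV segments. Tet2/3 DKO against WT gave a log2 fold change of -0.04 (SE 0.08, adjusted p = 0.887). In that test 0 of 24 segments were called, a background of 0%, while 3 had an unadjusted p under 0.05 and DESeq2 called 1, which was not TRBV31. Without DKO 1 edgeR called 8 of the 24 segments, and TRBV31 was not among them. Counting each clone once moved the log2 fold change to -0.19 (adjusted p = 0.673).

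The share of rearrangements was 13.6% ± 0.325 (SD, n = 2) in WT and 11.7% ± 1.37 (SD, n = 2) in Tet2/3 DKO. The difference of -1.81 percentage points had an exact two-sided permutation p of 0.33, the smallest that 2 libraries against 2 can give. Such a pattern, with both Tet2/3 DKO libraries below both WT libraries, was found for 4 of 24 TRBV segments (16.7%), and 7 of 24 (29.2%) did not overlap in either direction. The larger part of the gap came from DKO 2, and without that library the difference was -0.847 percentage points.

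DKO 2 stood apart from the other libraries in its large clones. The 10 most abundant TRBV31 rearrangements held 2.33% and 1.93% of TRBV31 reads in WT, 1.93% in DKO 1 and 20.5% in DKO 2. Values below count each rearrangement once unless reads are named.

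**Figure D2:**
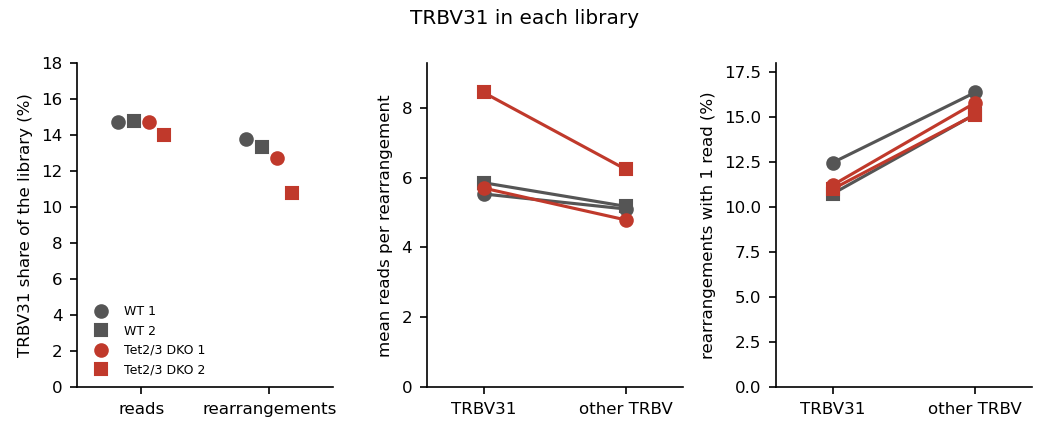
The left panel plots the share of TRBV31 in each library (%) by reads and by rearrangements, the middle panel the mean reads per rearrangement and the right panel the share of rearrangements with 1 read (%), for TRBV31 and for all other TRBV. Each point is 1 library and lines join the values of a library, and TRBV31 rearrangements had more reads and were less often seen with 1 read in all 4 libraries.

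TRBV31 was joined to all 12 TRBJ segments, but to some of them more or less often than the other V segments were. TRBJ2-7, TRBJ2-5, TRBJ2-3 and TRBJ2-1 were its most frequent partners, with mean shares of 19.8%, 12.8%, 11.2% and 11.03% of TRBV31 rearrangements, and TRBJ1-5 was the least frequent at 2.32%. The use of each of the 12 TRBJ segments was tested with edgeR on counts of rearrangements, with the library as a block. TRBV31 against all other TRBV passed an adjusted p of 0.05 for 10 of 12 TRBJ segments, 5 higher and 5 lower. Each of the 22 segments was tested in the same way against all the others, and 56.4% of these 264 tests were called, 28% higher and 28.4% lower, so that a V segment with a J profile of its own was common in this locus. Single V segments had between 1 and 11 of 12 TRBJ segments called. The shares of a V segment sum to 100, so that rises and falls are linked.

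The largest difference was at TRBJ1-2. It joined 7.21%, 6.63%, 6.76% and 7.46% of TRBV31 rearrangements, against 4.74%, 4.46%, 4.50% and 4.38% of those of all other TRBV. The lowest TRBV31 library lay above the highest value of the other segments, and the log2 difference was 0.63 (SE 0.04, edgeR adjusted p = 2.81e-06). TRBJ1-2 passed the test with reads in place of rearrangements too.

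TRBJ2-4 was the partner that TRBV31 used less than other segments by the largest factor. Its share was 9.04%, 8.77%, 8.63% and 9.20% with TRBV31 and 11.4%, 11.4%, 11.1% and 11.6% with the other segments (log2 difference -0.35, SE 0.02, edgeR adjusted p = 5.60e-07). The highest TRBV31 value lay below the lowest value of the other segments.

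TRBJ2-3 was more frequent with TRBV31, at 12.2%, 12.1%, 11.6% and 9.05% against 9.39%, 9.65%, 8.83% and 8.15% (log2 difference 0.32, SE 0.04, edgeR adjusted p = 1.71e-04). Here DKO 2 was the lowest library in both classes, and its TRBV31 value was below the WT values of the other segments. Within each library TRBV31 was the higher of the pair.

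TRBJ1-6 (3.205% against 2.57%, log2 difference 0.31), TRBJ1-4 (6.61% against 5.54%, 0.25) and TRBJ2-1 (11.03% against 10.3%, 0.10) were also higher with TRBV31. TRBJ1-1 (7.07% against 8.15%, -0.20), TRBJ2-7 (19.8% against 22.0%, -0.15), TRBJ2-5 (12.8% against 13.8%, -0.11) and TRBJ2-2 (5.57% against 5.89%, -0.08) were lower. TRBJ1-3 (4.37% against 4.58%) and TRBJ1-5 (2.32% against 2.24%) did not pass the test, with adjusted p-values of 0.101 and 0.458. With reads in place of rearrangements 3 TRBJ segments were called, TRBJ1-1, TRBJ1-2 and TRBJ2-4, as were 57 of all 264 tests. Among out-of-frame rearrangements alone 0 were called, where 2 had an unadjusted p under 0.05 and 0 of all 264 tests passed. DESeq2 called 7, without TRBJ2-1, TRBJ2-2 and TRBJ2-5, and 136 of all 264 tests. With any of the 4 libraries left out 9 were called, as TRBJ1-6 did not pass without WT 1 and TRBJ2-2 did not pass without each of the others in turn. Of all 264 tests, 128, 129, 117 and 133 were called without WT 1, WT 2, DKO 1 and DKO 2.

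**Figure D3:**
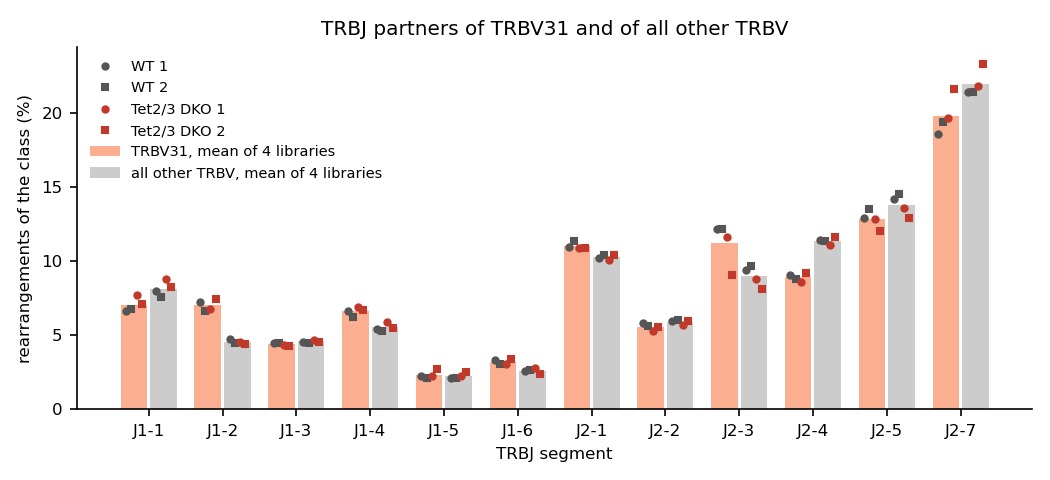
Bars give the mean share of rearrangements (%) joined to each TRBJ segment over 4 libraries, for TRBV31 and for all other TRBV, and points are the single libraries. The widest gaps are at TRBJ1-2 and TRBJ2-3, higher with TRBV31, and at TRBJ2-4 and TRBJ2-7, lower with TRBV31.

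The distance between both J profiles, the share of rearrangements that would have to change partner to make them equal, was 8.11%, 6.93%, 7.14% and 6.87%. The TRBV31 profiles of any pair of libraries were 1.89% to 5.31% apart. The distance from the other segments was thus larger than any distance between libraries, and the largest distances between libraries all involved DKO 2. Among the other segments, the J profile of TRBV20 was closest to that of TRBV31 (4.16%), followed by TRBV13-3 (5.81%) and TRBV19 (6.57%), and that of TRBV15 was farthest (16.1%), each computed on the mean profile over 4 libraries.

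The difference in TRBJ use did not change detectably with genotype. In a test of the interaction with edgeR, 0 of 12 TRBJ segments of TRBV31 were called at an adjusted p of 0.05, 0 had an unadjusted p under 0.05, and 0% of all 264 tests were called. The adjusted p-values were 0.967 to 0.986. DESeq2 was not run for the interaction.

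Summed over its 6 segments, the TRBJ1 cluster took 30.5%, 29.2%, 31.02% and 31.7% of TRBV31 rearrangements and 27.4%, 26.5%, 28.9% and 27.6% of all others. The difference was 2.99 ± 0.828 percentage points (SD, n = 4), higher with TRBV31 in 4 of 4 libraries (exact two-sided sign-flip permutation p = 0.13). This is the smallest p that 4 paired libraries can give, and it is the value reached by every within-library comparison below in which all 4 libraries differ in the same direction. By reads the TRBJ1 share was 30.4%, 28.3%, 30.1% and 24.98% with TRBV31 and 26.5%, 25.7%, 28.7% and 27.98% with the others. DKO 2 then went the other way, and the mean difference was 1.23 percentage points (exact permutation p = 0.5). TRBV31 was 5th of 22 segments in its TRBJ1 share by rearrangements. That share was higher in Tet2/3 DKO than in WT by 1.52 percentage points (exact permutation p = 0.33), or by 0.894 without WT 2, and the direction turned to -1.81 with reads as weights. The difference between TRBV31 and the other segments was nearly the same in both genotypes (2.87 in WT and 3.104 in Tet2/3 DKO).

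TRBD2 was called more often in the joins of TRBV31 than in those of the other segments. The core of TRBD1 carries the letters ACAG and that of TRBD2 the letters ACTG. TRBD2 lies downstream of the TRBJ1 cluster, so that deletion can join TRBD1 to either J cluster but TRBD2 only to TRBJ2. D calls rest on few nucleotides, and calls of TRBD2 in TRBJ1 joins give a gauge of wrong calls.

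Among TRBV31 joins to TRBJ2 with a D call, TRBD2 was called in 65.1%, 64.0%, 64.0% and 63.4%. Among the joins of all other TRBV to TRBJ2 it was called in 53.2%, 53.5%, 51.8% and 50.6%. The difference was 11.8 ± 0.950 percentage points (SD, n = 4), higher in 4 of 4 libraries (exact permutation p = 0.13). TRBV31 ranked highest of the 22 segments, with a mean of 64.1%, ahead of TRBV12-1 (60.4%), TRBV4 (59.6%) and TRBV13-2 (59.4%).

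The same held for rearrangements that cannot encode a chain. Among out-of-frame joins to TRBJ2 with a D call, TRBD2 took 72.6%, 66.1%, 73.0% and 76.9% with TRBV31 and 56.5%, 59.9%, 56.4% and 53.3% with the other segments. TRBV31 was the higher of the pair in each library, by 6.13 to 23.6 percentage points, with 260 to 283 TRBV31 joins per library behind these shares.

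In TRBJ1 joins with a D call, TRBD2 was called in 8.99%, 10.2%, 9.46% and 8.22% with TRBV31 and in 7.43%, 7.25%, 7.09% and 6.45% with the other segments. The difference there, 2.15 ± 0.611 percentage points, was smaller than in TRBJ2 joins. Reading the D segment from the letters between V and J, on the coding strand and without overlap of both motifs, avoided most such calls. Of TRBJ2 joins with either ACTG or ACAG alone, ACTG was found in 67.2% with TRBV31 and 53.5% with the other segments (difference 13.7 ± 1.76 percentage points, SD, n = 4, higher in 4 of 4). In TRBJ1 joins the corresponding values were 0.394% and 0.372%. Neither motif was found in 59.2% to 60.8% of TRBV31 joins to TRBJ2 and in 58.8% to 60.6% of those of other segments, so that this reading covers fewer rearrangements. With its end after 13 nucleotides of the CDR3, TRBV31 ends in the letters AGTC, whose palindromic nucleotides, GACT, spell part of TRBD2. Nucleotides of TRBD2 may therefore be counted as palindromic or the reverse. Palindromic runs of 3 or more nucleotides were listed at 5.11% to 7.44% of TRBV31 ends and at 1.71% to 2.27% of the others, over the libraries and both J clusters. With these nucleotides included in the search, ACTG was found in 70.2%, 67.3%, 66.9% and 65.8% of TRBJ2 joins with TRBV31 and in 54.2%, 55.02%, 53.03% and 51.9% of those of the other segments.

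A D segment was also called more often with TRBV31, in 75.8%, 77.5%, 76.8% and 75.1% of rearrangements against 72.0%, 72.2%, 72.0% and 72.6%. Its mean of 76.3% was the highest of the 22 segments. The excess was 5.60 ± 0.948 percentage points in TRBJ2 joins, in 4 of 4 libraries, and 1.90 ± 1.69 in TRBJ1 joins, in 3 of 4 libraries.

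Over both J clusters together, TRBD1 took 49.4%, 49.5%, 50.9% and 51.5% of TRBV31 D calls and 57.8%, 57.3%, 59.6% and 60.1% of the others, a difference of -8.40 ± 0.397 percentage points (SD, n = 4) in the same direction in 4 of 4 libraries, and by reads of -10.7. TRBV31 was 21st of 22 segments, next to TRBV17 (50.1%) and TRBV12-1 (50.9%), so that a low TRBD1 share by itself was not particular to it. The TRBD1 share was higher in Tet2/3 DKO than in WT by 1.80 percentage points for TRBV31 (exact permutation p = 0.33), a direction that turned to -2.45 with reads as weights, while the gap to the other segments was -8.12 (WT) and -8.68 (Tet2/3 DKO).

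**Figure D4:**
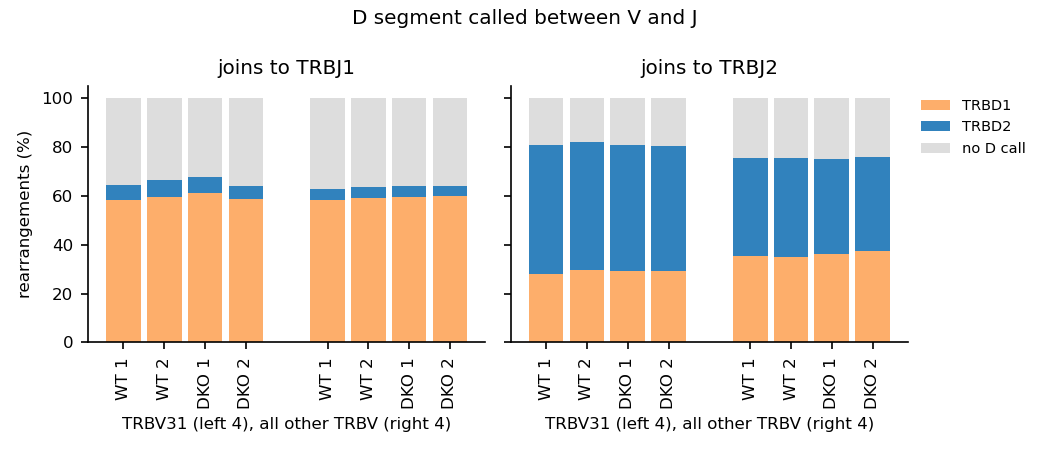
Stacked bars give the share of rearrangements (%) with TRBD1, with TRBD2 or with no D call, for joins to TRBJ1 (left) and to TRBJ2 (right), with TRBV31 in the left 4 bars and all other TRBV in the right 4 bars of each panel. In joins to TRBJ2, TRBD2 took 50.8% to 52.6% of TRBV31 rearrangements and 38.4% to 40.3% of the others.

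The V end of TRBV31 was the least trimmed of the 22 segments as the files place that end. TRBV31 rearrangements had lost 0.931, 0.921, 0.894 and 0.817 nucleotides on average, against 2.53, 2.55, 2.50 and 2.55 for the other segments. Palindromic ends counted as untrimmed, the end was untrimmed in 63.5%, 63.6%, 64.0% and 65.9% of TRBV31 rearrangements and in 25.1%, 24.9%, 25.5% and 24.3% of the others. Both values placed TRBV31 at the extreme of all 22 segments in the mean over libraries.

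Where exactly the segment ends could not be settled from the data. The next nucleotide was counted after untrimmed ends without palindromic nucleotides, which were 50.8%, 51.0%, 51.8% and 51.8% of TRBV31 rearrangements. Palindromic ends, a further 12.6%, 12.7%, 12.3% and 14.1%, were left out. After the counted ends the next nucleotide was T in 73.0%, 72.2%, 72.2% and 72.4%. Counted in the same way, the commonest next base of any other segment had a lower share (at most 67.0%, for TRBV17). If T belongs to the segment, the germline part of the CDR3 is 14 nucleotides long.
TRBV31 start of the CDR3, 1 base further: tgtgcctggagtcT
The added base is in capitals. With this end, 40.6% of TRBV31 ends were untrimmed, 5th of 22 segments, and mean trimming was 1.48 nucleotides, 20th of 22. TRBV31 was then still less trimmed than all other TRBV together in 4 of 4 libraries, by 1.05 nucleotides, but no longer the least trimmed segment.

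The stretch between V and J was longer with TRBV31. It measured 9.77, 9.92, 9.84 and 9.58 nucleotides, against 8.71, 8.77, 8.68 and 8.61 for the others (difference 1.08 ± 0.0851, SD, n = 4, longer in 4 of 4), and by reads the difference was 1.49. TRBV31 had the longest mean stretch of the 22 segments, and it still had with the end placed 1 base further, at 9.71 nucleotides. In rearrangements with a D call, 1.68 nucleotides lay between V and D with TRBV31 and 1.101 with the others, and 1.19 and 1.14 lay between D and J. The extra nucleotides on the V side include the T described above where it is not part of the segment. Trimming of the J end was close in both classes, at 2.74 and 2.81 nucleotides.

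**Figure D5:**
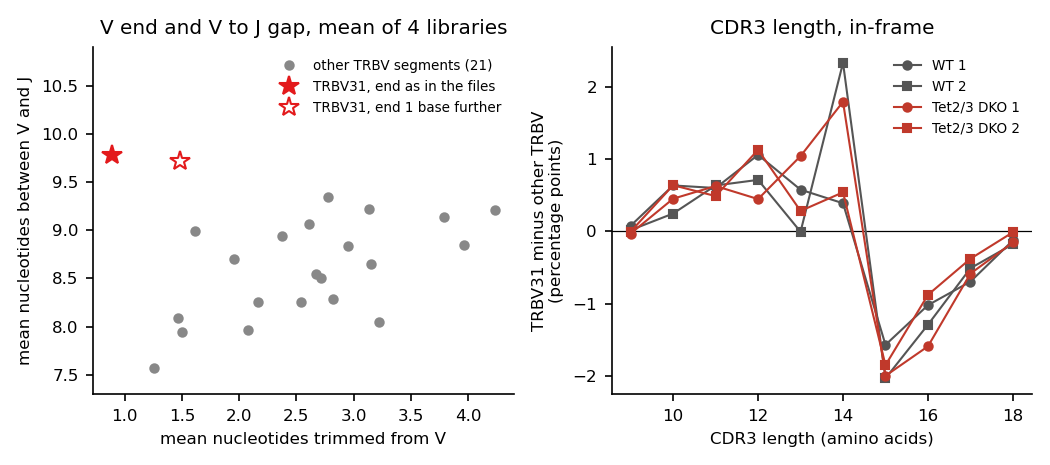
The left panel plots mean nucleotides between V and J against mean nucleotides trimmed from V for 22 TRBV segments (mean of 4 libraries), with TRBV31 as the files end it (filled star) and with its end 1 base further (open star). The right panel plots, for in-frame rearrangements of each CDR3 length in amino acids, the share with TRBV31 minus the share with all other TRBV (percentage points) in each library, which is above 0 at 10 to 12 and 14 residues and below 0 at 15 to 18 residues in every library.

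CDR3 lengths were close. The mean of in-frame TRBV31 rearrangements was 13.6, 13.6, 13.6 and 13.6 amino acids, against 13.8, 13.8, 13.8 and 13.7 for the others, a difference of -0.127 ± 0.0134 (SD, n = 4) in the same direction in 4 of 4 libraries. The size of this difference depended on the weighting. By reads it was -0.0369 and not in the same direction in every library (exact permutation p = 0.62), and with each of the other segments weighted equally it was -0.0437, or -0.0287 without TRBV24. TRBV31 was 14th of 22 segments in length. The most frequent length was 14 residues in both classes, 31.5% of TRBV31 rearrangements and 30.2% of the others, and 15 residues were less frequent with TRBV31 (17.9% against 19.8%). Out-of-frame rearrangements, with nucleotides divided by 3, differed by -0.169 ± 0.0838.

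Most TRBV31 rearrangements were in frame and without a stop codon, 95.1%, 95.5%, 95.4% and 94.7%, against 96.0%, 96.3%, 96.1% and 96.1% of the others. The difference was -0.960 ± 0.318 percentage points (SD, n = 4), lower with TRBV31 in 4 of 4 libraries (exact permutation p = 0.13). It was made up mostly of out-of-frame rearrangements, 4.43% against 3.59%, and stop codons in frame were found in 0.396% and 0.266%. The comparison depends on how the other segments are combined. TRBV31 was 14th of 22 segments, and with each of the other segments weighted equally the difference turned to 3.13, since only 21.5% of TRBV24 rearrangements were in frame, while without TRBV24 it was -0.401. By reads it was -0.435 and over rearrangements with at least 2 reads -0.551, both smaller than the main value. A lower in-frame share was therefore not particular to TRBV31. By genotype the difference was -0.864 (WT) and -1.06 (Tet2/3 DKO).

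TRBV31 rearrangements were larger on average. They held 5.53, 5.85, 5.70 and 8.43 reads each, against 5.10, 5.18, 4.79 and 6.23 reads for the others, a log2 difference of 0.25 ± 0.14 (SD, n = 4). Both values were highest in DKO 2. Without the 10 most abundant rearrangements of each class the means were 5.41, 5.74, 5.59 and 6.71 against 4.95, 5.10, 4.72 and 5.89, so that the difference was present in 4 of 4 libraries without the large clones. The median was 5 reads for TRBV31 and 4 for the others in every library, and only TRBV20 had a higher mean among the 22 segments.

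Rearrangements with 1 read were fewer with TRBV31, at 12.5%, 10.8%, 11.2% and 11.02% against 16.4%, 15.2%, 15.8% and 15.1%. The difference was -4.25 ± 0.297 percentage points (SD, n = 4). With the deposited clones left unmerged it turned to 0.320 percentage points. TRBV31 had more deposited clones per rearrangement than the others, 1.22 against 1.15, and what part sequence variants of the same transcript have in this was not tested. The values by frame were apart, with a difference of -4.67 ± 0.233 percentage points in frame, in 4 of 4 libraries, and of -1.31 ± 1.81 out of frame, where 1 library went the other way.

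TRBV31 was also counted among the largest clones of each library. Among the 100 most abundant rearrangements 8, 6, 11 and 10 used TRBV31, and among the 1000 most abundant 126, 109, 174 and 129 did. Among the 100 the share of TRBV31 was below its share of all rearrangements in each library, and by its Wilson interval at 95% confidence only that of WT 2, 2.78% to 12.5%, lay below it. By the same kind of interval, the share of TRBV31 among the 1000 was 15.2% to 19.9% in DKO 1, above its 12.7% of all rearrangements there. In DKO 2 it was 10.96% to 15.1%, just above its 10.8%. In WT 2 it was 9.12% to 12.98%, below its 13.3%, and in WT 1 the interval, 10.7% to 14.8%, held its 13.8%. These intervals treat rearrangements as independent draws, and the genotypes were not compared on them.

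The most abundant TRBV31 rearrangement of each library is shown by its CDR3, from the V end through the junction to the J segment, because these chains differ between libraries and include the largest TRBV31 clone of DKO 2. Capitals mark the nucleotides between the V end and the J start as the files place them, D segment included.
WT 1, TRBJ2-3: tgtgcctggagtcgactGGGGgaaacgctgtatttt
WT 2, TRBJ2-5: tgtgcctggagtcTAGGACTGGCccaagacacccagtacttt
DKO 1, TRBJ2-7: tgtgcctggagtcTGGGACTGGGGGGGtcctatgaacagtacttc
DKO 2, TRBJ2-5: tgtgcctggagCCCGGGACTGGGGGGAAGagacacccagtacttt
All 4 were in frame and joined to a TRBJ2 segment, and 3 of them carried ACTG between V and J, the letters of TRBD2. The clone of WT 1 had no D call, and gact, which the files count there as palindromic nucleotides of the V end, spells ACTG together with the G after it. It held 197 reads, 0.0539% of TCRβ reads (95% Wilson confidence interval 0.0469% to 0.0620%), and 1 read in DKO 2. The leading clone of WT 2 held 298 reads, 0.0656% (0.0586% to 0.0735%), and that of DKO 1 held 317 reads, 0.0774% (0.0694% to 0.0864%), and neither was read in another library. The leading clone of DKO 2 held 7821 reads, 1.37% (1.34% to 1.403%), and ranked 2nd in its library. It alone made up 9.79% of the TRBV31 reads there, and a further TRBV31 clone, joined to TRBJ2-1, held 3994 reads.

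The J profile of TRBV31 by reads was apart in DKO 2. TRBJ2-5, the J segment of its leading clone, took 12.3%, 13.8%, 12.4% and 20.9% of TRBV31 reads, while with each rearrangement counted once DKO 2 had the lowest share, 12.9%, 13.5%, 12.8% and 12.03%. TRBJ2-3 took 12.6%, 12.5%, 12.1% and 7.69% of TRBV31 reads, and it was lowest in DKO 2 by rearrangements too, as given above. The V-J pairs of TRBV31 were compared between genotypes with edgeR within a fit over 267 pairs. Of its 12 pairs, 0 passed an adjusted p of 0.05 and 0 had an unadjusted p under 0.05, against a background of 0% of all pairs called and 25 of 267 with an unadjusted p under 0.05, and DESeq2 called 0 of the 12. The log2 fold change, Tet2/3 DKO against WT, was 0.30 (SE 0.25, adjusted p = 0.742) for TRBJ2-5 and -0.37 (SE 0.25, adjusted p = 0.699) for TRBJ2-3. Without DKO 1 both of these pairs were called, among 27 of 265. DKO 2 was then the only Tet2/3 DKO library, assumed by the fit to vary as the WT libraries do.

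TRBV31 chains were often found in more than 1 library. Of the in-frame TRBV31 CDR3 amino acid sequences, taken with their J segment, 32.0%, 30.3%, 30.8% and 33.2% of them occurred in at least 1 other library, against 26.2%, 24.4%, 24.99% and 24.3% for the other segments. This order reversed once the number of chains was made equal. With 2000 chains drawn per V segment and library, over the 10 segments that allowed it, the shares were 10.5%, 10.3%, 10.3% and 11.1% for TRBV31 and 15.01%, 14.4%, 14.5% and 14.9% on average for the others (difference -4.17 percentage points). TRBV31 was then 7th of 10 segments.

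Over the 4 libraries TRBV31 gave 27552 distinct chains, of which 481 (1.75%) were found in all 4 libraries and 23222 (84.3%) in 1. Compared with the chains found in 1 library, those found in all 4 were shorter, 13.3 against 13.7 residues, and had 7.69 against 10.6 nucleotides between V and J. They made up 12.6%, 11.4%, 12.5% and 12.6% of TRBV31 reads, a share that was close in all libraries. Chains of the other segments showed the same pattern: 1.03% of 214075 were found in all 4 libraries, these had 13.2 against 13.9 residues and 5.91 against 9.42 nucleotides between V and J, and they made up 8.86%, 8.73%, 8.48% and 7.76% of reads.

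Of these 481 chains, the 5 with the highest lowest share of reads are shown by their most abundant nucleotide form, which was itself read in all 4 libraries. Capitals again mark the nucleotides between V and J.
Shared chain 1, TRBJ2-7: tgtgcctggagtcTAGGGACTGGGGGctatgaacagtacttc
Shared chain 2, TRBJ2-4: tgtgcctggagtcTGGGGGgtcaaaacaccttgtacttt
Shared chain 3, TRBJ2-5: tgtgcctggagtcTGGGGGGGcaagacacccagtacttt
Shared chain 4, TRBJ2-1: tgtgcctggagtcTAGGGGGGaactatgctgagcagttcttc
Shared chain 5, TRBJ2-7: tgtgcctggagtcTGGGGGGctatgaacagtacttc
All 5 kept the 13 nucleotides assigned to TRBV31 followed by T, which may itself belong to the segment, and all were joined to TRBJ2. In shared chains 2, 3 and 5 the T was followed by a run of G alone, with neither ACAG nor ACTG. In shared chains 1 and 4 it was followed by A and then G. Shared chain 1 also carried ACTG, letters that lie within TRBD2. The D call was TRBD1 for shared chain 4 and TRBD2 for shared chains 1, 2, 3 and 5. Shared chain 1 held 83, 136, 152 and 220 reads and was encoded by 23 distinct nucleotide sequences, of which the one shown held 22.0% of the reads. The other 4 were encoded by 16 to 18 sequences each. Their reads ranged from 38 to 127 in WT 1, from 48 to 114 in WT 2, from 51 to 127 in DKO 1 and from 70 to 170 in DKO 2.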

How the data were processed

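TCRβ clones of splenic CD4 T cells from 2 WT and 2 Tet2/3 DKO mice were analysed. The authors prepared 5′ RACE libraries from 20 ng of RNA, trimmed adapters and filtered by quality using fastp (0.21.0), and built clones by means of MiXCR. The submitters' processing notes name bcl2fastq (2.20.0) and mm10. The authors deposited the read count of each clone and its fraction of the TCRβ reads. The deposited fraction equalled the count share in every table and was used only for that check. TCRα tables were not used here.

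The first listed V, D and J segment was taken, and clones were merged into rearrangements by V, J and CDR3 nucleotide sequence. Clones without a CDR3, 0.735% to 1.00% of reads, stayed in read totals only. Trimming and inserted nucleotides were taken from the reference points of the tables. TRBV31 was compared with all other TRBV within each library by exact two-sided sign-flip permutation tests, and genotypes by exact permutation over 6 assignments. Counts per TRBV segment, per V-J pair (both at least 50 reads) and of TRBJ use were tested in edgeR 4.0.16 by quasi-likelihood. They were scaled by library totals, with Benjamini-Hochberg adjustment over all tests of a table and a threshold of 0.05. DESeq2 1.42.0 was an alternative. Python 3.11.15, numpy 2.4.6, pandas 2.3.3 and R 4.3.3 were used.

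Named were TRBV31, its TRBJ and TRBD partners, the 3 closest segments and the farthest in TRBJ use, the leading TRBV31 clone of each library, and 5 shared chains. Other segments are named where a rank or a count turns on them; these were picked with their values known, as was the TRBJ2-1 clone of Tet2/3 DKO replicate 2. The members and lists were chosen with earlier results of these data known. Alternatives covered weighting by reads, deposited clones, a minimum of 2 reads, frame, equal weights, unambiguous V or D calls, depth, scaling, filters, a replicate block and each library left out. The shifted V end, the D motifs (without and with palindromic nucleotides), the comparison without TRBV24, merging with the V segment ignored, every alternative of the TRBD2 share in TRBJ2 joins, equal numbers of chains and leaving out the 10 largest rearrangements were chosen after seeing the data.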

Additional observations from a re-analysis of the deposited data

How the results depend on the processing

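Over the alternatives of the edgeR comparisons, 107 values kept their direction and their side of the threshold, 20 kept only their direction, 3 counts moved by over 1.5 times and 7 values reversed. Of the values compared by permutation, 171 kept their direction and 16 reversed; with so few libraries none of these could pass 0.05, so this says nothing of significance. Several kept their direction with a smaller size: the TRBJ1 share by reads (1.23), CDR3 length by reads (-0.0369) or equal weights (-0.0437) and the in-frame share by reads (-0.435). The TRBJ1 share was larger out of frame (5.91). The cause of the exceptions was not tested, and neither was the part that fewer rearrangements have in them. By reads, 3 TRBJ segments differed between TRBV31 and the others, where 57 of all 264 tests were called. By out-of-frame rearrangements 0 differed and 0 of all 264 tests were called, with 443 to 457 TRBV31 rearrangements per library. The log2 difference changed sign out of frame for TRBJ1-1 (0.21), TRBJ1-3 (0.35), TRBJ2-1 (-0.061) and TRBJ2-2 (0.045), and by reads for TRBJ1-5 (-0.052) and TRBJ2-5 (0.039). Differences also reversed for the in-frame share with the other segments weighted equally (3.13), J trimming by reads (0.0163) and out of frame (0.0170), the share with 1 read per deposited clone (0.320) and sharing with equal numbers of chains (-4.17). The TRBD2 excess in TRBJ2 joins kept its direction in every setting tried, all of them chosen after seeing the data. The shifted V end was not among these settings.

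Between genotypes, Tet2/3 DKO minus WT turned by reads to -1.81 for the TRBJ1 share, -2.45 for the TRBD1 share, 0.0923 for CDR3 length, 0.384 for the V-J stretch and 0.148 for J trimming. With each library left out, the log2 fold change of TRBV31 reads ranged from -0.073 to 0.00011, the read share from -0.728 to 0.00112, the share of the 10 largest from -0.199 to 18.3, the in-frame share from -0.613 to 0.119, CDR3 length from -0.0668 to 0.00758 and J trimming from -0.0468 to 0.0271; the highest of these values but that of the 10 largest and of J trimming were those without DKO 2. The TRBJ1 share ranged from 0.894 (without WT 2) to 2.14. The number of TRBV31-TRBJ pairs called ranged from 0 to 2, with 2 without DKO 1. Replicate numbers were not taken to pair the samples (correlation of deviations 0.165 over TRBV segments and -0.0648 over V-J pairs). With 2 libraries per genotype the deviations mirror each other, so these correlations cannot decide whether the samples were paired. With the replicate block the log2 fold change of TRBV31 was -0.04 (adjusted p = 0.906) and 0 of its pairs were called.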
